A study of Mus musculus with 6 samples.

Results

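The basement membrane and elastic fibre genes were 31 genes picked by name: laminin chains, the proteins that link laminin to the rest of the basement membrane, the basement membrane proteoglycans, and the fibulins, fibrillins, microfibril-associated glycoproteins, emilins and elastin. Their names matched 32 of the 39495 loci in the deposited files, because Lamc1 had a second, single-exon locus on the opposite strand at its 5′ end. Primary fibroblasts cultured from mouse embryos in serum-containing medium were used, and both genotypes are labelled C57BL/6. There were 3 STC1+/+ (wild-type) and 3 STC1-/- (knockout) libraries of polyadenylated RNA, with 21882092 to 71488701 estimated fragments each. Stc1 encodes the secreted glycoprotein stanniocalcin-1, and the labels give no other allele, treatment, embryo age or count of embryos per culture. Separate embryos or cultures behind the replicates are not stated, so the p-values speak only of the spread among these 6 libraries, which may be technical.

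A basement membrane is a thin sheet of matrix under epithelia, around muscle fibres and around vessels. Laminins, each a trimer of an alpha, a beta and a gamma chain, polymerise on the cell surface, and nidogens and perlecan tie that network to type IV collagen. Elastic fibres have a core of crosslinked elastin laid on microfibrils of fibrillin, with fibulins and microfibril-associated glycoproteins guiding the assembly. Fibroblasts secrete fibrillin, elastin and several basement membrane components, without being enclosed in a basement membrane themselves.

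The labels were checked on the targeted gene and on cell markers. For Stc1, wild-type cells gave 2245, 291 and 368 fragments and knockout cells 6, 0 and 0, with an adjusted p of 0.763 in edgeR's quasi-likelihood test. Fibroblast markers summed to between 5700 and 31438 CPM (fragments scaled to a common effective library size) in the 6 libraries, and the highest sum was in wild-type replicate 2. Macrophage markers differed widely: over 13 loci they summed to 19.5, 991 and 9537 CPM in the wild-type libraries, in order of replicate, and to 699.9, 66.3 and 92.0 CPM in the knockout libraries. Endothelial, epithelial, skeletal muscle and Schwann cell marker sums were 57.7 CPM or less in every library. The Schwann cell and neural crest sum differed, at 57.7 CPM in knockout replicate 1 and between 2.53 and 26.0 CPM in the other libraries. In RNA from whole cultures, fewer cells of a type and less RNA per cell cannot be told apart.

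No member passed the test between genotypes. The targeted gene Stc1 did not pass it either, so a lack of calls does not show equal levels. edgeR's quasi-likelihood test on all 15673 loci with enough fragments called 0 of 31 tested member loci at an adjusted p under 0.05, and the share called over all loci was 0 percent. At an unadjusted p under 0.05, 3 member loci (elastin, fibulin-5 and nidogen-2) were lower in knockout cells, where the share over all loci was 2.27%, and 0 were higher, where it was 1.60%. DESeq2 called 0 members, against 0.320% of the 19059 loci to which it gave an adjusted p. At an unadjusted p under 0.05 it placed 6 lower and 0 higher, against 3.26% and 1.94% of the 23509 loci with a p. Those loci include ones that edgeR's filter left out, and the 31 member loci with a DESeq2 p included Emilin3 but not Eln. Emilin3, with 1 fragment in wild-type replicate 3, 1 in knockout replicate 1 and none in the other libraries, did not pass the filter on low counts. The adjusted p of the tested members ran from 0.763 to 0.990 in edgeR's test.

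The direction of the members was uneven between roles. Negative log2 fold changes (knockout over wild type) were fitted for 22 of the 31 loci, against 55.6% of all loci, and the median over the 31 was -0.52 against -0.05 over all loci. Wild-type replicate 2 decided much of that median: without it, the median was -0.12 and 18 of 31 loci were negative, beside a median of -0.01 and 51.1% negative over all loci. All 5 laminin alpha chain loci, 5 of 6 fibulins, both fibrillins and elastin had negative values with all 6 libraries, as had 2 of 3 laminin beta chains and 2 of 3 microfibril-associated glycoproteins. Other roles were mixed: 1 of 3 gamma chain loci (median 0.45), 2 of 4 laminin-binding linkers (median -0.23), 1 of 2 proteoglycans (median 0.30) and 1 of 2 emilins (median -0.13) were negative. The 2 positive gamma chain loci held few fragments. The second Lamc1 locus, which set that median, had at most 17 in a library, and Lamc3 at most 25. The main Lamc1 locus, far more abundant, was at -0.25. Without wild-type replicate 2, the alpha chains had 2 negative values of 5, while the fibulins kept 5 negative values. Fbn1, Fbn2 and Eln stayed negative but moved toward 0, to -0.41, -0.43 and -1.61. In that fit, 0 members were lower at an unadjusted p under 0.05 in edgeR's test.

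**Figure D1:**
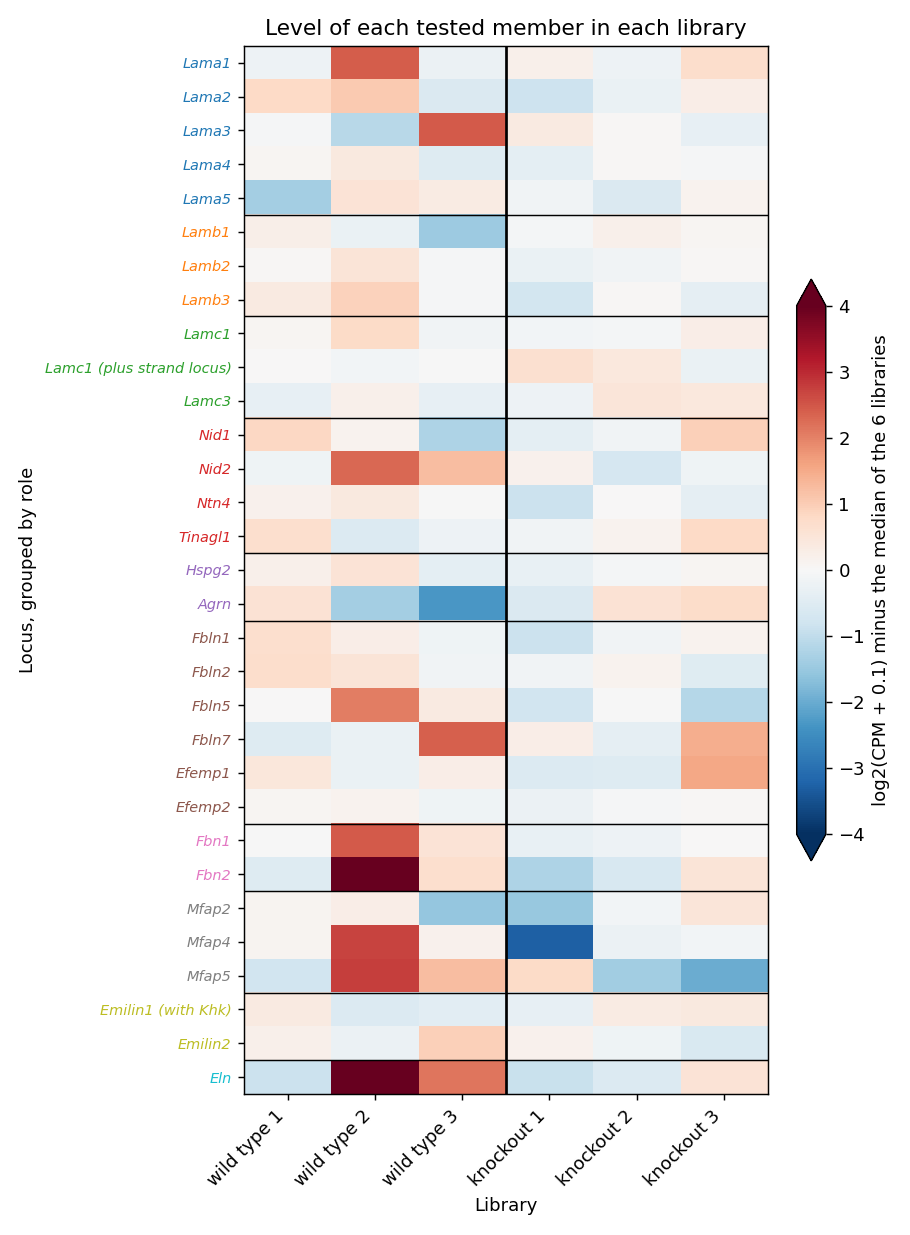
Each row is a tested member locus, each column a library, and the colour is log2(CPM + 0.1) minus the median of the 6 libraries, with values past 4 at the end of the scale. Wild-type replicate 2 carries the deepest red cells, for Eln and Fbn2, and was the highest library for 17 of 31 loci.

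Among the elastic fibre genes, a group of loci stood far higher in wild-type replicate 2 than anywhere else. Eln, the gene of elastin itself (mm10 chromosome 5, 134702763 to 134747337, minus strand, protein-coding), stood at 0.198, 66.7 and 2.26 CPM in wild-type cells, given here and below in order of replicate. In knockout cells it stood at 0.188, 0.268 and 0.688 CPM. Elastin RNA was thus at most 2.26 CPM in 5 libraries, and wild-type replicate 1 lay within the knockout range, so the groups overlapped. The log2 fold change, -5.86 (standard error 2.16), was -1.61 without wild-type replicate 2. DESeq2 returned no p for Eln. GENCODE lists the antisense gene Gm30003 within the span of Eln, while Gm9913 overlaps Fbn1 and Adrm1 overlaps Lama5 on the opposite strand. The sources used here do not state whether counting used the strand, so reads of such pairs cannot be told apart.

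Fbn1 and Fbn2 encode the fibrillins, the proteins that form the microfibril backbone. Fbn1 (chromosome 2, 125300471 to 125509095, minus strand) stood at 512, 2863 and 758 CPM in wild-type and 422, 458 and 534 CPM in knockout cells. The knockout libraries lay close together, at 471 ± 57.6 CPM (SD, n = 3), and only wild-type replicate 1 fell among them. Fbn2, the other fibrillin gene (chromosome 18), stood at 11.1, 271 and 25.4 CPM in wild-type and 6.81, 10.1 and 23.1 CPM in knockout cells. Its level in wild-type replicate 2 was 10.7 times that of the next highest library. The log2 fold changes were -1.55 for Fbn1 (standard error 0.67) and -2.94 for Fbn2 (standard error 1.29), and -0.41 and -0.43 without wild-type replicate 2.

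The microfibril-associated glycoproteins sit on fibrillin microfibrils, and Mfap4 also binds elastin. Mfap4 (chromosome 11, 61485409 to 61491750, plus strand) stood at 14.5, 88.5 and 15.1 CPM in wild-type and 1.32, 11.6 and 12.6 CPM in knockout cells. The genotypes did not overlap, but the gap between 12.6 and 14.5 CPM was narrow, and knockout replicate 1 was lowest. Of the 31 tested loci 2 were separated in this way, lower in knockout cells, where 5.44% of all loci were, and 0 were separated the other way, where 5.18% were. Mfap5 (chromosome 6, 122505845 to 122529826, plus strand) stood at 8.45, 99.8 and 34.8 CPM in wild-type and 25.1, 5.52 and 3.62 CPM in knockout cells, so the groups overlapped. The log2 fold changes were -2.21 for Mfap4 (standard error 1.08) and -2.07 for Mfap5 (standard error 1.11), and -0.78 and -0.91 without wild-type replicate 2. Mfap4 overlaps Mapk7, a kinase gene on the opposite strand.

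Mfap2, the third of these glycoprotein genes, followed another order. It stood at 33.9, 38.4 and 10.8 CPM in wild-type and 11.1, 29.7 and 44.2 CPM in knockout cells. Wild-type replicate 3 and knockout replicate 1 were low and the other 4 libraries were not, and the group means were 27.7 ± 14.8 and 28.3 ± 16.6 CPM (SD, n = 3 each).

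**Figure D2:**
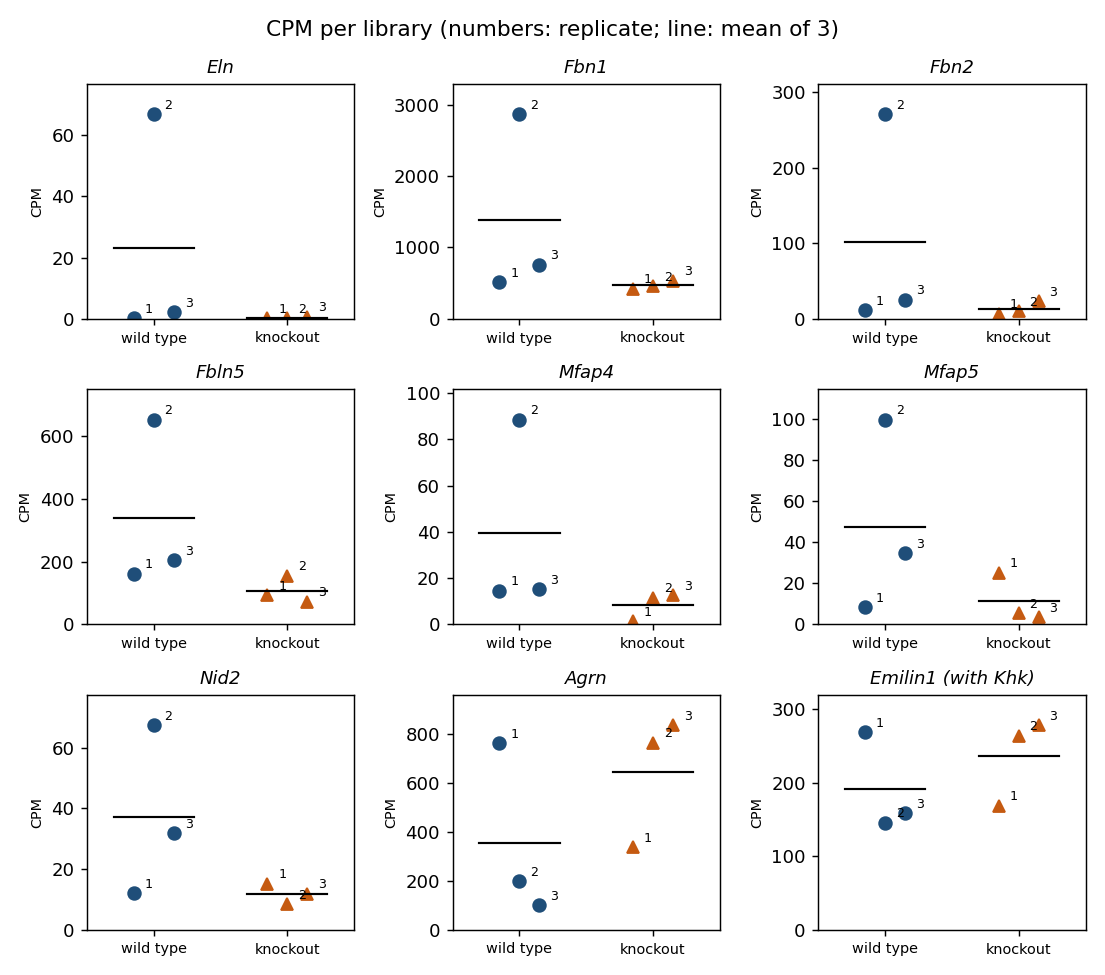
Each panel gives the CPM of 1 gene in the 3 wild-type (circles) and 3 knockout (triangles) libraries, on an axis that starts at 0, with the replicate number beside each point and a line at each group's mean. In the panels of Eln, Fbn1, Fbn2, Fbln5, Mfap4, Mfap5 and Nid2, wild-type replicate 2 is the highest point, at 66.7 CPM for Eln.

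Fibulins are short rod-like matrix proteins, and Fbln5 and Efemp2 are the members best known for elastic fibre assembly. Fbln5 (chromosome 12, 101746565 to 101819055, minus strand) stood at 162, 652 and 204 CPM in wild-type and 92.2, 155 and 72.1 CPM in knockout cells. The groups did not overlap in CPM, but the nearest libraries, at 162 and 155 CPM, were close, and in the deposited FPKM they overlapped at 21.7 in wild-type replicate 1 and 21.8 in knockout replicate 2. The log2 fold change, -1.67 (standard error 0.62), was -0.77 without wild-type replicate 2. Efemp2, which encodes the fibulin that brings lysyl oxidase to elastin, stood at 384, 406 and 327 CPM in wild-type and 308, 352 and 377 CPM in knockout cells. All 6 of its values lay between 308 and 406 CPM, and the groups overlapped.

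Fbln2 had the highest length-scaled level of the 31 genes, at 801 ± 225 FPKM (the deposited value scaled by locus length and depth; SD, n = 6 libraries). Fbln2 (chromosome 6, 91212391 to 91277805, plus strand), whose protein binds both basement membrane and elastic fibre components, stood at 5775, 5044 and 3238 CPM in wild-type and 3249, 3907 and 2556 CPM in knockout cells. Wild-type replicate 3 lay among the knockout libraries, with a log2 fold change of -0.53 (standard error 0.31). Fbln1, found in both structures as well, stood at 102, 77.9 and 57.6 CPM in wild-type and 35.1, 58.9 and 70.5 CPM in knockout cells. Its group means were 79.3 ± 22.4 and 54.8 ± 18.0 CPM (SD, n = 3 each), a difference of about the size of the spread.

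The other fibulins were set by few libraries. Efemp1, a close relative of Efemp2, stood at 108, 65.6 and 95.9 CPM in wild-type and 54.3, 55.4 and 233 CPM in knockout cells, so that its positive log2 fold change of 0.35 rested on knockout replicate 3. Leaving out 1 library at a time moved that value from -0.71 to 0.70. Fbln7 was low, with 8.79 CPM in wild-type replicate 3, 4.59 CPM in knockout replicate 3 and between 1.09 and 1.97 CPM in the other 4 libraries.

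The emilins are microfibril-associated glycoproteins of the elastin and microfibril interface, and Emilin1 restrains the processing of the growth factor TGF-beta. Emilin1 shares its locus with Khk, the ketohexokinase gene (chromosome 5, 30913181 to 30931246, plus strand), and the fragments of both cannot be told apart. The locus stood at 268, 145 and 158 CPM in wild-type and 169, 264 and 278 CPM in knockout cells. The lowest were wild-type replicate 2, wild-type replicate 3 and knockout replicate 1, which held the highest macrophage marker sums, and the groups overlapped. Emilin2 stood at 152, 112 and 257 CPM in wild-type and 149, 117 and 86.9 CPM in knockout cells, with its highest level in wild-type replicate 3.

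The laminin chains were present at unequal levels. In deposited FPKM, Lama4, the alpha chain of mesenchymal and vascular laminins, stood at 24.3 ± 5.60, Lama2, the alpha chain of muscle and nerve sheath basement membranes, at 3.07 ± 1.53, and Lama5, an alpha chain of epithelia and vessels, at 2.75 ± 1.28 (SD, n = 6 libraries each). Lama1, the alpha chain of the earliest embryonic basement membranes, stood at 0.364 ± 0.372 FPKM and Lama3, that of epithelial anchoring laminins, at 0.292 ± 0.339 FPKM. Every library had more Lama4 than any library had of another alpha chain, from 17.5 to 33.0 FPKM against at most 5.32 FPKM. The ranges of Lama2 and Lama5 overlapped, as did those of Lama1 and Lama3. Of the beta chains, Lamb1 stood at 99.1 ± 31.9 FPKM, Lamb2, the beta chain of the synaptic and kidney basement membranes, at 22.5 ± 4.58 FPKM and Lamb3, the epithelial one, at 0.105 ± 0.0492 FPKM. The gamma chain Lamc1, shared by most laminins, stood at 40.0 ± 11.1 FPKM and Lamc3 at 0.0581 ± 0.0193 FPKM.

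**Figure D3:**
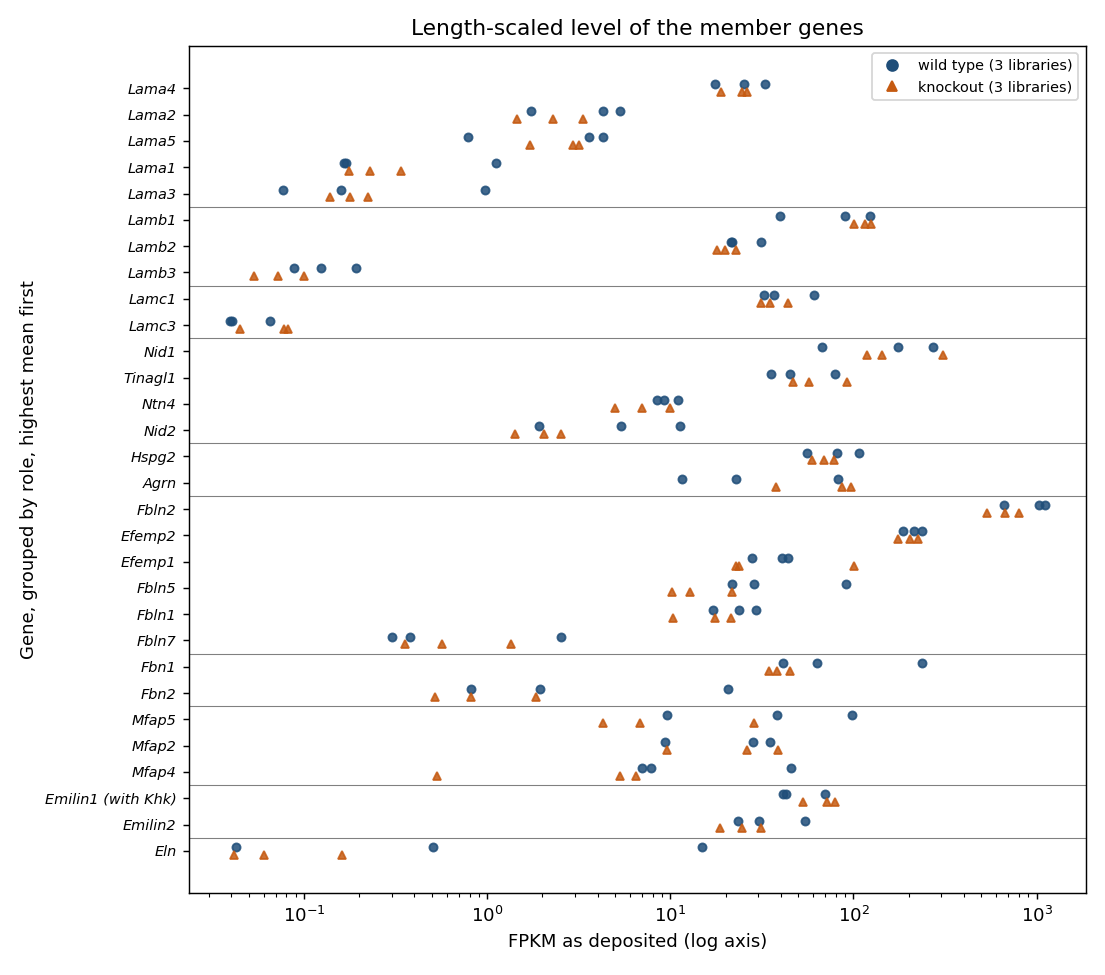
Points give the deposited FPKM of each member gene (log axis) in the 3 wild-type libraries (circles) and 3 knockout libraries (triangles), grouped by role. Fbln2 had the highest mean, 801 FPKM over the 6 libraries, and Lamc3 the lowest of the genes drawn, 0.0581 FPKM; Emilin3, with no fragment in 4 libraries, is not drawn.

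The genotypes overlapped for the most abundant alpha, beta and gamma chains. Lama4 (chromosome 10, 38965515 to 39110188, plus strand) stood at 195, 246 and 129.6 CPM in wild-type and 142, 192 and 180.4 CPM in knockout cells. Lamc1 (chromosome 1, 153218922 to 153332996, minus strand) stood at 337, 542 and 291 CPM in wild-type and 294, 303 and 387 CPM in knockout cells. For both chains wild-type replicate 2 was highest, wild-type replicate 3 was lowest and the groups overlapped, with log2 fold changes of -0.15 (standard error 0.27) and -0.25 (standard error 0.28) that turned to 0.09 and 0.08 without wild-type replicate 2. The second Lamc1 locus (153332557 to 153332996, plus strand) stood between 0.177 and 0.423 CPM in the 6 libraries.

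Lamb1 (chromosome 12, 31265234 to 31329644, plus strand) stood at 890.0, 632 and 276 CPM in wild-type and 711, 866 and 796 CPM in knockout cells. The wild-type libraries spread over a wide range around the narrow knockout range, at 599 ± 308 and 791 ± 77.6 CPM (SD, n = 3 each), and the low value was in wild-type replicate 3. The log2 fold change of Lamb1, 0.40 (standard error 0.42), ran from 0.06 to 0.80 when 1 library was left out. Lamb2 stood between 149 and 219 CPM in wild-type and between 126 and 156 CPM in knockout cells, overlapping at 149 CPM in wild-type replicate 3 and 156 CPM in knockout replicate 3.

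Among the scarce chains, Lamb3 (chromosome 1, 193301957 to 193343878, plus strand) stood at 0.623, 0.960 and 0.435 CPM in wild-type and 0.235, 0.483 and 0.333 CPM in knockout cells. These are levels below 1 CPM, with a log2 fold change of -0.92 (standard error 0.47) that was -0.56 without wild-type replicate 2. Lama1 had 13.2 CPM in wild-type replicate 2 and between 1.99 and 3.93 CPM in the other 5 libraries, and its log2 fold change turned from -0.98 to 0.54 without that library. Lama3 had 12.7 CPM in wild-type replicate 3 and between 0.984 and 2.91 CPM in the others. Lamc3 stood between 0.290 and 0.590 CPM. Lama2 stood at 54.3, 64.2 and 20.9 CPM in wild-type and 17.6, 26.1 and 37.6 CPM in knockout cells, and Lama5 at 16.3, 61.7 and 52.7 CPM against 37.8, 27.9 and 46.1 CPM. The genotypes overlapped for both. The authors' software had marked Lama2 FAIL in 3 libraries and Lama1 in 2.

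The nidogens bind the laminin gamma chain and type IV collagen. Nid1 (chromosome 13, 13437602 to 13515674, plus strand) stood at 2105, 1308 and 499 CPM in wild-type and 894, 1057 and 2259.7 CPM in knockout cells. Each genotype thus held both high and low libraries, and the log2 fold change of 0.11 ran from -0.42 to 0.64 when 1 library was left out. Nid2 (chromosome 14, 19751257 to 19811787, plus strand) was far less abundant, at 12.0, 67.4 and 31.9 CPM in wild-type and 15.2, 8.39 and 11.9 CPM in knockout cells. Wild-type replicates 2 and 3 were the highest libraries, and wild-type replicate 1 lay among the knockout libraries. The log2 fold change of Nid2, -1.65 (standard error 0.63), was -0.87 without wild-type replicate 2. Nid2 overlaps Rtraf on the opposite strand.

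Ntn4 encodes a laminin-related netrin that binds gamma chains and loosens laminin networks. Ntn4 (chromosome 10, 93640681 to 93747207, plus strand) stood at 34.1, 40.0 and 30.1 CPM in wild-type and 16.8, 30.6 and 23.4 CPM in knockout cells. The groups overlapped narrowly, at 30.1 and 30.6 CPM, with a log2 fold change of -0.56 (standard error 0.26). It stayed negative when each library was left out in turn, from -0.78 to -0.36, with an adjusted p of 0.389 to 1.0 over all alternatives. Tinagl1, a secreted relative of the tubulointerstitial nephritis antigen, stood at 186, 79.5 and 102 CPM in wild-type and 106, 128 and 202 CPM in knockout cells.

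The basement membrane proteoglycans carry heparan sulphate chains. Hspg2, the perlecan gene (chromosome 4, 137468769 to 137570731, plus strand), stood at 1509, 1919 and 992 CPM in wild-type and 1069, 1229 and 1376 CPM in knockout cells. The groups overlapped, and the authors' software had marked this locus FAIL in all 6 libraries. Agrn encodes agrin, which also clusters acetylcholine receptors at the nerve and muscle synapse. It stood at 762, 197 and 101 CPM in wild-type and 336, 763 and 835 CPM in knockout cells. Wild-type replicate 1 was thus close to knockout replicates 2 and 3, while wild-type replicates 2 and 3 were lowest and knockout replicate 1 came next. The log2 fold change of Agrn, 0.87 with a standard error of 0.79, was the largest positive value among the tested members, and ran from 0.43 to 2.11 when 1 library was left out.

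**Figure D4:**
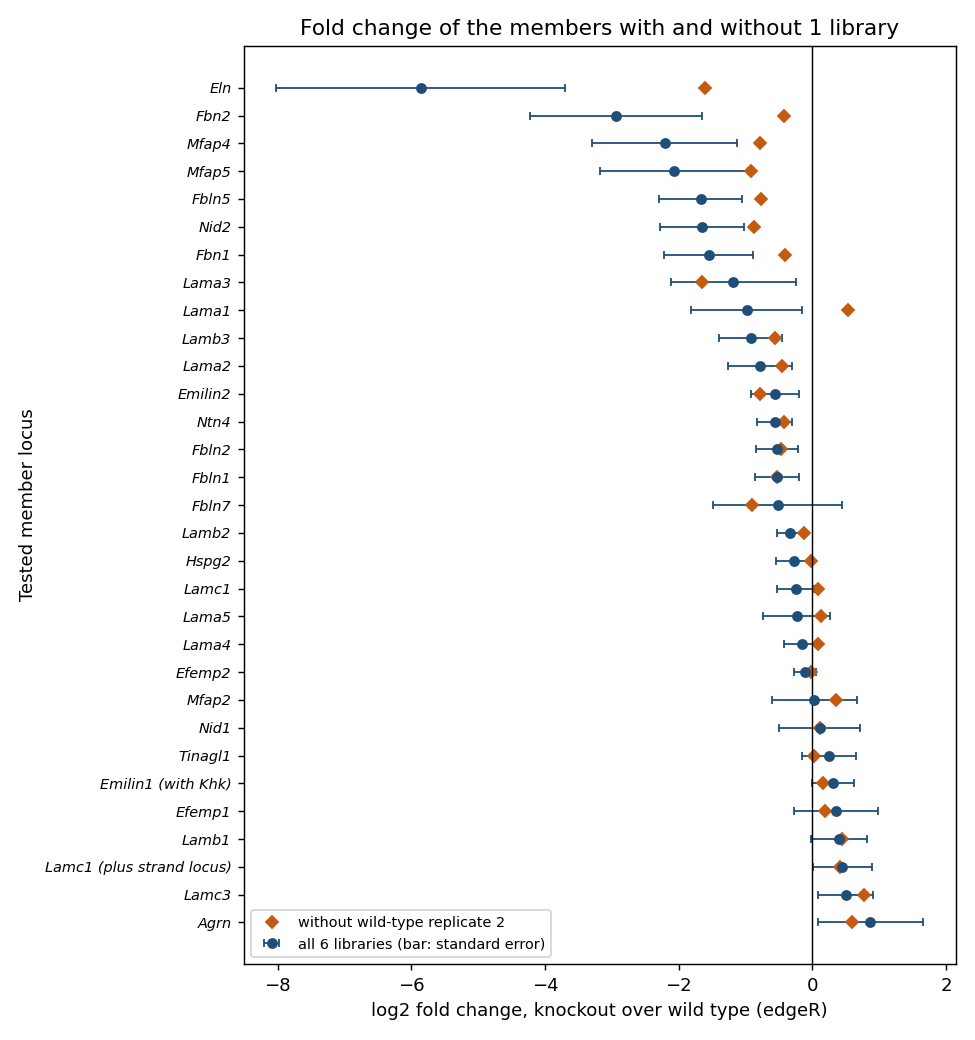
Circles give the edgeR log2 fold change of each tested member locus (knockout over wild type) with its standard error, and diamonds the value refitted without wild-type replicate 2. The 7 loci with the most negative values, from Eln at -5.86 to Fbn1 at -1.55, all move toward 0 when that library is left out.

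The pattern of single libraries was summarised over the members, a summary chosen after the values were seen. Wild-type replicate 2 was the highest library for 17 of the 31 tested loci (54.8%), and for 27.3% of all tested loci. It exceeded every other library at least 2-fold for 8 members (25.8%: Lama1, Nid2, Fbln5, Fbn1, Fbn2, Mfap4, Mfap5 and Eln), and for 3.52% of all loci. It exceeded every other library at least 3-fold for 6 members (19.4%), and for 1.22% of all loci. Knockout replicate 1 was the lowest library for 11 members (35.5%), against 12.6% of all loci. Wild-type replicate 3 was lowest for 9 members (29.0%), close to its 25.0% over all loci.

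Cell type markers also differed between these libraries. The summed level of 9 smooth muscle and pericyte markers was 8939 CPM in wild-type replicate 2 and between 2590.5 and 4988 CPM in the other 5 libraries, with Myocd below 1 CPM throughout. The 9 fibroblast markers summed to 31438 CPM there and to between 5700 and 12257 CPM elsewhere. Of the tested markers, 7 of 9 in each of these lists had negative log2 fold changes, as had 14 of 14 macrophage markers. The 3 libraries highest in macrophage markers (wild-type replicate 2, wild-type replicate 3 and knockout replicate 1) were the 3 lowest for 4 members (12.9%: Lamb1, Tinagl1, Agrn and the Emilin1 locus), against 10.5% of all loci. They were the 3 highest for 2 members (6.45%: Nid2 and Mfap5), against 11.3% of all loci. The part of cell types in the members' levels was not tested. Without these 3 libraries the log2 fold changes of Eln and Fbn2 were 1.27 and 0.58, from the only remaining wild-type library, which was taken to vary as much as the knockout ones.

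Promoters are shown for 4 genes with different patterns: Fbln5 and Fbn1, at least 3-fold higher in wild-type replicate 2 than in any other library, Efemp2, nearly level, and Agrn, high in wild-type replicate 1 and knockout replicates 2 and 3. RefSeq promoters (build GRCm38.p6, 250 bases before to 50 after the annotated start) were matched by symbol for 20 of the 31 genes, and the start nearest to the 5′ end of the locus was taken. That start lay 64 bases from the locus end for Fbln5, 2657 for Fbn1, 27 for Efemp2 and 0 for Agrn. The windows are chr12:101819070-101819369 (minus strand), chr2:125506389-125506688 (minus), chr19:5473696-5473995 (plus) and chr4:156197439-156197738 (minus), printed 5′ to 3′ along the gene. Capitals mark GC boxes and CCAAT boxes on either strand.
Fbln5: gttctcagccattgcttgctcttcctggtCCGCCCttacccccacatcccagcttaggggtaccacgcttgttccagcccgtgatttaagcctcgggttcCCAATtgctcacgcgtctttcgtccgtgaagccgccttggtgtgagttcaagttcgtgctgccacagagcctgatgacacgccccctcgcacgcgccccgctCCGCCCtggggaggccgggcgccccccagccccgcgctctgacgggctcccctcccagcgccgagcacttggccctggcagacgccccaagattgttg
Fbn1: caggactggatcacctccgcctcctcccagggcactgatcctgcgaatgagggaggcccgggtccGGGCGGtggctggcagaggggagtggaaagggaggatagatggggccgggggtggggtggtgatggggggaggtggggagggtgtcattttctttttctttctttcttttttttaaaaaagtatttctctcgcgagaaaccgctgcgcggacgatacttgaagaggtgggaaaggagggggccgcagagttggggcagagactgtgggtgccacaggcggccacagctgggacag
Efemp2: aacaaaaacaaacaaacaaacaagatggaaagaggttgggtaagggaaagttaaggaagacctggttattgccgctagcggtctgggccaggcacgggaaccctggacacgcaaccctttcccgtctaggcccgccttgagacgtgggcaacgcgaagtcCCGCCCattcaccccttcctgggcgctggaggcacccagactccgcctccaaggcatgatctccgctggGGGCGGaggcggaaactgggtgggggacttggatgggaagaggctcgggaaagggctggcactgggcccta
Agrn: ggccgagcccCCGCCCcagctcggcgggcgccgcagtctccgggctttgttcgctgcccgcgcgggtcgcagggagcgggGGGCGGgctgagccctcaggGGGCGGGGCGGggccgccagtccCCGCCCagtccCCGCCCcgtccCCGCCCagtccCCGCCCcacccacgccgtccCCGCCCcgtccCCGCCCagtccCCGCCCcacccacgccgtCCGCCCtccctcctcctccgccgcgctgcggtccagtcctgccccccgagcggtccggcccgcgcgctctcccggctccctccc

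These windows were rich in G and C, at 65.7% for Fbln5, 60.3% for Fbn1, 60.3% for Efemp2 and 83.3% for Agrn. The GC box GGGCGG, searched on both strands with overlapping matches counted, occurred 2 times in Fbln5, 1 time in Fbn1, 2 times in Efemp2 and 12 times in Agrn, most of them in a run of near repeats. CCAAT occurred 1 time, in Fbln5. No match to the TATA box TATAAA, the AP-1 motif TGANTCA, the TEAD motif GGAATG or the CArG box was found in the 4 windows, a choice of motifs and genes made after the values were seen. Over the nearest windows of the 20 matched genes, 65.0% held a GC box, against 35.7% of all 32851 windows, and 30.0% a CCAAT box, against 37.4%. The 32851 windows were not reduced to the nearest start of each gene, so the sets are unlike. The TATA box was in 0 percent against 13.6% and the TEAD motif in 25.0% (5 windows) against 14.7%. The AP-1 motif was in 10.0% (2 windows) against 7.81% and the CArG box in 5.0% (1 window) against 1.63%. A match describes letters only.

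Among other genes of the same structures, edgeR's test called 0 at an adjusted p under 0.05. Of 24 tested loci of other basement membrane components, the log2 fold change was negative for 17, with -0.25 as the median (0.01 once wild-type replicate 2 was left out), and 1 was lower and 0 higher at an unadjusted p under 0.05. That gene was Egfl6, a secreted basement membrane protein, at 0.481, 16.4 and 4.68 CPM in wild-type and 0.282, 1.45 and 0.333 CPM in knockout cells. The collagen-binding protein gene Sparc stood at 2571, 6060.3 and 2160.3 CPM in wild-type and 1379, 1938 and 2105 CPM in knockout cells, so the groups were separated, by the gap between 2160.3 and 2105 CPM. Hmcn2, a large hemicentin gene, went the other way, at 5.69, 1.48 and 1.97 CPM against 7.75, 6.38 and 7.45 CPM. Its groups were separated too, as were those of the Ntn3 locus, also higher in knockout cells. That locus was counted together with Tbc1d24, so its fragments cannot be assigned to Ntn3. Over all loci, 5.44% were separated lower and 5.18% higher in knockout cells. At an unadjusted p under 0.05 in edgeR's test, 2.27% of all loci were lower and 1.60% higher. Vwa1, of the same list, stood at 1.47 ± 0.554 in wild-type and 0.899 ± 0.0609 CPM in knockout cells (SD, n = 3 each).

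Of 14 tested receptor genes, 9 had negative values with a median of -0.04, and 0 reached an unadjusted p under 0.05 in edgeR's test. The shares of all loci at that threshold were 2.27% lower and 1.60% higher. Itga7, the laminin receptor subunit of muscle, stood at 32.7, 27.4 and 35.8 CPM in wild-type and 62.9, 39.2 and 36.1 CPM in knockout cells. Its groups were separated, higher in knockout cells, by the gap between 35.8 and 36.1 CPM. Dag1, of the same list, was separated the other way, lower in knockout cells. The shares of all loci separated were 5.18% higher and 5.44% lower. Itga6, another laminin receptor subunit, stood at 51.2, 94.7 and 203 CPM against 40.9, 42.2 and 78.6 CPM. The laminin receptor gene Bcam stood at 5.91 ± 3.98 CPM in wild-type and 11.8 ± 3.11 CPM in knockout cells, and the dystrophin gene Dmd at 18.2 ± 5.29 against 12.7 ± 1.26 CPM (SD, n = 3 each).

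Of 17 tested genes of elastic fibre and microfibril assembly, 13 had negative values, with a median of -0.22 (-0.08 without wild-type replicate 2), and 1 was lower and 0 higher at an unadjusted p under 0.05. That locus was Loxl3, a lysyl oxidase-like gene counted together with Aup1, at 317, 431 and 261 CPM in wild-type and 155, 273 and 161 CPM in knockout cells. Lox, the enzyme that crosslinks elastin and collagen, stood at 2000.3, 3104 and 1770.2 CPM in wild-type and 1606, 1704 and 1260.3 CPM in knockout cells. Its groups did not overlap, lower in knockout cells, where 5.44% of all loci were separated. The shares of all loci at an unadjusted p under 0.05 in edgeR's test were 2.27% lower and 1.60% higher. Loxl1, which acts on elastin, stood at 215, 498 and 273 CPM against 167, 208 and 232 CPM, and Loxl4 at 38.7 ± 6.04 against 31.5 ± 4.80 CPM (SD, n = 3 each).

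Of 11 tested protease genes, 4 had negative values with a median of 0.55 (0.20 without wild-type replicate 2), and 0 were lower and 1 higher at an unadjusted p under 0.05. That gene was Mmp9, a gelatinase that cuts type IV collagen and elastin, at 26.3, 11.1 and 37.6 CPM in wild-type and 122, 65.9 and 49.4 CPM in knockout cells. Mmp3, a stromelysin with basement membrane substrates, stood at 549.6, 21.2 and 438 CPM against 1614, 1484 and 1176 CPM, with its lowest level in wild-type replicate 2. For Mmp9 and Mmp3 the groups were separated, higher in knockout cells, where 5.18% of all loci were. In edgeR's test, 2.27% of all loci were lower and 1.60% higher at an unadjusted p under 0.05. Mmp12, the macrophage elastase, stood at 4.37, 13.0 and 196 CPM against 727, 46.1 and 74.4 CPM, and Mmp2, a further gelatinase, at 445 ± 87.8 against 713 ± 393 CPM (SD, n = 3 each).

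In the authors' deposited table, 17 of the 31 genes were found, of which 13 carried a test. In that table the authors' log2 fold change was negative for 10 of the 13, and 0 had a q-value under 0.05. Fbn2 had the lowest p-value of them in the authors' deposited table, 0.00207 with a q-value of 0.471, at a log2 fold change of -2.90. The authors' deposited table gives mean values of 7.82 FPKM in wild-type and 1.05 FPKM in knockout cells for Fbn2, and 48.4 and 13.2 FPKM for Mfap5. Hspg2 is marked FAIL in the authors' deposited table, with no usable fold change.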

How the data were processed

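Polyadenylated RNA of 3 wild-type and 3 Stc1 knockout libraries was measured. Cuffdiff 2.0.1, TopHat2 2.0.6, CASAVA 1.8.2 and build mm10 are listed, without role or order, in the submitters' processing notes. Per the file headers, the authors' values are an estimated count of fragments and an FPKM per locus, and the authors' deposited table holds mean FPKM, log2 fold change, p-value and q-value. Estimated counts were rounded. Of 39495 loci, 2667 without a gene name (0.507% to 0.555% of fragments) and 16 marked HIDATA in any library were left out. Counts were tested with edgeR 4.0.16 (filterByExpr, TMM, robust quasi-likelihood F test, Benjamini-Hochberg over 15673 loci) in R 4.3.3. Standard errors are the log2 fold change over the square root of F. Alternatives used DESeq2 1.42.0 and limma 3.58.1. The same fit was also run on counts simulated from its own means and dispersions, and no result is drawn from that run here. Overlapping genes come from GENCODE M21.

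Members and lists were chosen with earlier results of these data known. Given in full were the 8 members with the smallest p, those whose groups did not overlap, and the highest in mean FPKM of each role; from 4 further lists, the 4 genes each with the smallest p. Lyz2 and Fn1 were not analysed here, and Adgre1 was matched under its older symbol Emr1. Depth limits the scarce genes: at 21882092 fragments, a library holds few fragments of a gene below 0.5 CPM.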

Additional observations from a re-analysis of the deposited data

How the results depend on the processing

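Under 16 alternatives, no member was called: the lowest adjusted p of a member given in full was 0.132, and 243 of 252 refitted fold changes of those members kept their direction. Over all loci DESeq2 called 61 and limma on log2(FPKM + 0.1) called 1, against 0 in edgeR. The count of members lower at an unadjusted p under 0.05, 3 in edgeR with all libraries, was 6 with DESeq2, 1 with limma-voom and 0 with limma on log2(FPKM + 1) or log2(FPKM + 0.1). It ran from 0 (without wild-type replicate 2) to 6 (without wild-type replicate 1 or 3) when 1 library was left out, and the count higher from 0 to 1. Without the 3 libraries with the most macrophage marker RNA, an alternative chosen after seeing the data, 1 member was lower and 1 higher at that threshold, and the log2 fold changes of Lamb1, Lamc1, Nid1, Fbn2 and Eln changed sign, to -0.10, 0.03, -0.34, 0.58 and 1.27. With 1 library left out, those of Lama4 ran from -0.37 to 0.09, of Lamc1 from -0.42 to 0.08 and of Nid1 from -0.42 to 0.64. The cause was not tested. The median over members was negative under all 16 alternatives, from -0.51 with RLE scaling to -0.09 without the 3 libraries, and from -0.44 to -0.12 with 1 library left out. No paired analysis was possible because the labels give no replicate numbers: those used here only name the libraries in the order of deposit, and no label ties a wild-type to a knockout library.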
